A study of Mus musculus with 49 samples.

Results

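Neurotrophins are small secreted growth factors that neurons and their targets use to regulate survival, axon growth and synaptic plasticity, and 6 genes of this system were followed here in D1- and D2-medium spiny neurons (MSNs) of the mouse nucleus accumbens (NAc). They are the ligands Bdnf and Ntf3, the receptor kinases Ntrk2 (TrkB) and Ntrk3 (TrkC), the low-affinity neurotrophin receptor Ngfr (p75NTR) and the sorting receptor Sort1 (sortilin). They were taken by name as genes of 1 family, without use of their values, and are 6 of the 52636 genes in the count table. All 6 were found. Gene bodies are given on GRCm38, from first to last annotated base. Bdnf (ENSMUSG00000048482) lies at chr2:109674700-109727007, Ntf3 (ENSMUSG00000049107) at chr6:126101412-126166910, Ntrk2 (ENSMUSG00000055254) at chr13:58806569-59133970, Ntrk3 (ENSMUSG00000059146) at chr7:78175959-78738012, Ngfr (ENSMUSG00000000120) at chr11:95568818-95587735 and Sort1 (ENSMUSG00000068747) at chr3:108284082-108361511. Bdnf, Ntrk2 and Sort1 are on the plus strand and the others on the minus strand. Reads over introns as well as exons were counted without regard to strand, so a value covers the whole gene body. Splice forms of Ntrk2 with and without the kinase domain are not separated, and reads of the antisense gene Gm45346 within the Bdnf body count for both genes. The same holds for 4 counted genes that overlap Ntrk2, 4 that overlap Ntrk3 and 2 that overlap Sort1. Among them, Gm12523 at Sort1 held a median of 88.5 counts in RiboTag M D1 and 63.5 in D2, and 4930415C11Rik at Ntrk2 116.5 and 121.5.

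Bdnf binds TrkB and Ntf3 binds mainly TrkC, while p75NTR binds all neurotrophins and, together with sortilin, their unprocessed precursors. In the striatum, most Bdnf protein is made by cortical and midbrain neurons and released from their axons, and MSNs respond to it through TrkB. Cholinergic interneurons of the striatum are known to carry p75NTR during development.

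The question the design poses is whether a gene differs between the cell types, and whether the answer depends on how RNA was obtained. All mice were on a C57BL/6J background and each sample came from 1 mouse. Whole cell libraries (8 D1, 6 D2) came from sorted cells with a cytoplasmic fluorophore under the Drd1 or Drd2 promoter, after papain digestion of fresh tissue. Nuclear libraries (6 D1, 5 D2) came from sorted nuclei of frozen tissue of Drd1-cre or Drd2-cre mice crossed to Thy1-loxPSTOPloxP-EGFP-F. RiboTag libraries came from Drd1-cre or Drd2-cre mice carrying Rpl22-loxPexon4loxP-exon4-HA, in which Cre puts an HA tag on a ribosomal protein so that ribosomes with their RNA are pulled down from fresh tissue. The RiboTag libraries labelled male (RiboTag M, 6 D1 and 6 D2) and female (RiboTag F, 5 and 5) were kept apart, and all whole cell and nuclear libraries are labelled male. Drd2-cre and the Drd2 promoter are also active in cholinergic interneurons, and no step selected MSNs beyond these drivers.

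Total counts ran from 3701255 to 68777008 in nuclear, from 10476223 to 27965357 in whole cell and from 24076888 to 45641342 in RiboTag libraries. The 10 most abundant genes took 84.9% to 88.3% of RiboTag counts, and 66.9% of the counts in the most extreme nuclear D1 library. Drd1 was higher in D1 and Drd2 higher in D2 in all 4 sets of libraries. All 5 D1 markers and all 5 D2 markers passed the test in their own direction in the whole cell and both RiboTag sets, but 1 of 5 D1 and 1 of 5 D2 markers did in nuclei, where 1 D2 marker was higher in D1. In 6 of the 12 RiboTag M libraries (D1 1 to 4, D2 2 and 6) Xist exceeded the summed Y-linked genes, against their label, so the D1 and D2 comparison of the 6 genes in RiboTag M is also given without them. Marker sums and comparisons with other methods include all 12. Genes of olfactory and vomeronasal receptors, which MSNs should not express, served as a measure of reads that fall on any stretch of the genome. These 1316 genes held 0.898 to 6.71 counts per kb on average in whole cell libraries, 0.0479 to 7.42 in nuclear D1, 0.974 to 15.8 in nuclear D2 and at most 0.0162 in RiboTag. These are raw counts, not scaled to library totals.

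By group mean per kb of gene body, the receptors Ntrk2, Ntrk3 and Sort1 were the most abundant of the 6 genes in every set. Per kb of gene body, on a TMM scale common to all libraries (FPKM), Sort1 reached 2.04 ± 0.160 FPKM (SD, n = 6) in RiboTag M D1, 1.76 ± 0.118 (n = 6) in RiboTag M D2, 2.11 ± 0.211 (n = 5) in RiboTag F D1 and 1.958 ± 0.156 (n = 5) in RiboTag F D2. Ntrk2 followed with 0.598 ± 0.0290, 0.671 ± 0.0414, 0.628 ± 0.0306 and 0.593 ± 0.0369 FPKM in the same groups. Ntrk3 came next with 0.244 ± 0.0131, 0.260 ± 0.0137, 0.274 ± 0.0265 and 0.251 ± 0.00926 FPKM. The library ranges of these neighbours in the order did not overlap in any RiboTag group. Bdnf, Ngfr and Ntf3 stayed at or below a group mean of 0.106 FPKM in RiboTag, where Ngfr reached that value in F D2 and Ntf3 was lowest at 0.00137 to 0.00253 FPKM. The highest Ngfr library in F D2, at 0.322 FPKM, lay above every Ntrk3 library of that group (at most 0.266).

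In whole cell and nuclear libraries the order was looser. Sort1 had 0.540 ± 0.187 FPKM (n = 8) in whole cell D1, 0.623 ± 0.211 (n = 6) in whole cell D2, 0.703 ± 0.229 (n = 6) in nuclear D1 and 0.327 ± 0.0607 (n = 5) in nuclear D2, and Ntrk2 had 0.342 ± 0.0998, 0.471 ± 0.111, 0.783 ± 0.252 and 0.3803 ± 0.0873. The library ranges of Sort1, Ntrk2 and Ntrk3 overlapped between neighbours in all 4 groups, and those of Ntrk3 and Ngfr in whole cell D1 and nuclear D2. Ntf3 had 0.0622 to 0.180 FPKM there as group means and Bdnf 0.0501 to 0.108, higher than in any RiboTag group. When the same counts, introns included, were divided by kb of exon instead of gene body, the order changed. Ntf3, whose exons make up 2.62% of its body, led in nuclear D2 with 6.89 FPKM against 6.45 for Ntrk2. In whole cell D1 it stood above Ntrk3 (4.96 against 4.78). Per kb of body, Ntf3 in nuclear D2 held 1.86 to 2.88 times the mean of the olfactory and vomeronasal receptor genes. It lay above their 95th percentile in 0 of 5 libraries, so its exon-scaled level is not a measure of reads from exons.

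**Figure D1:**
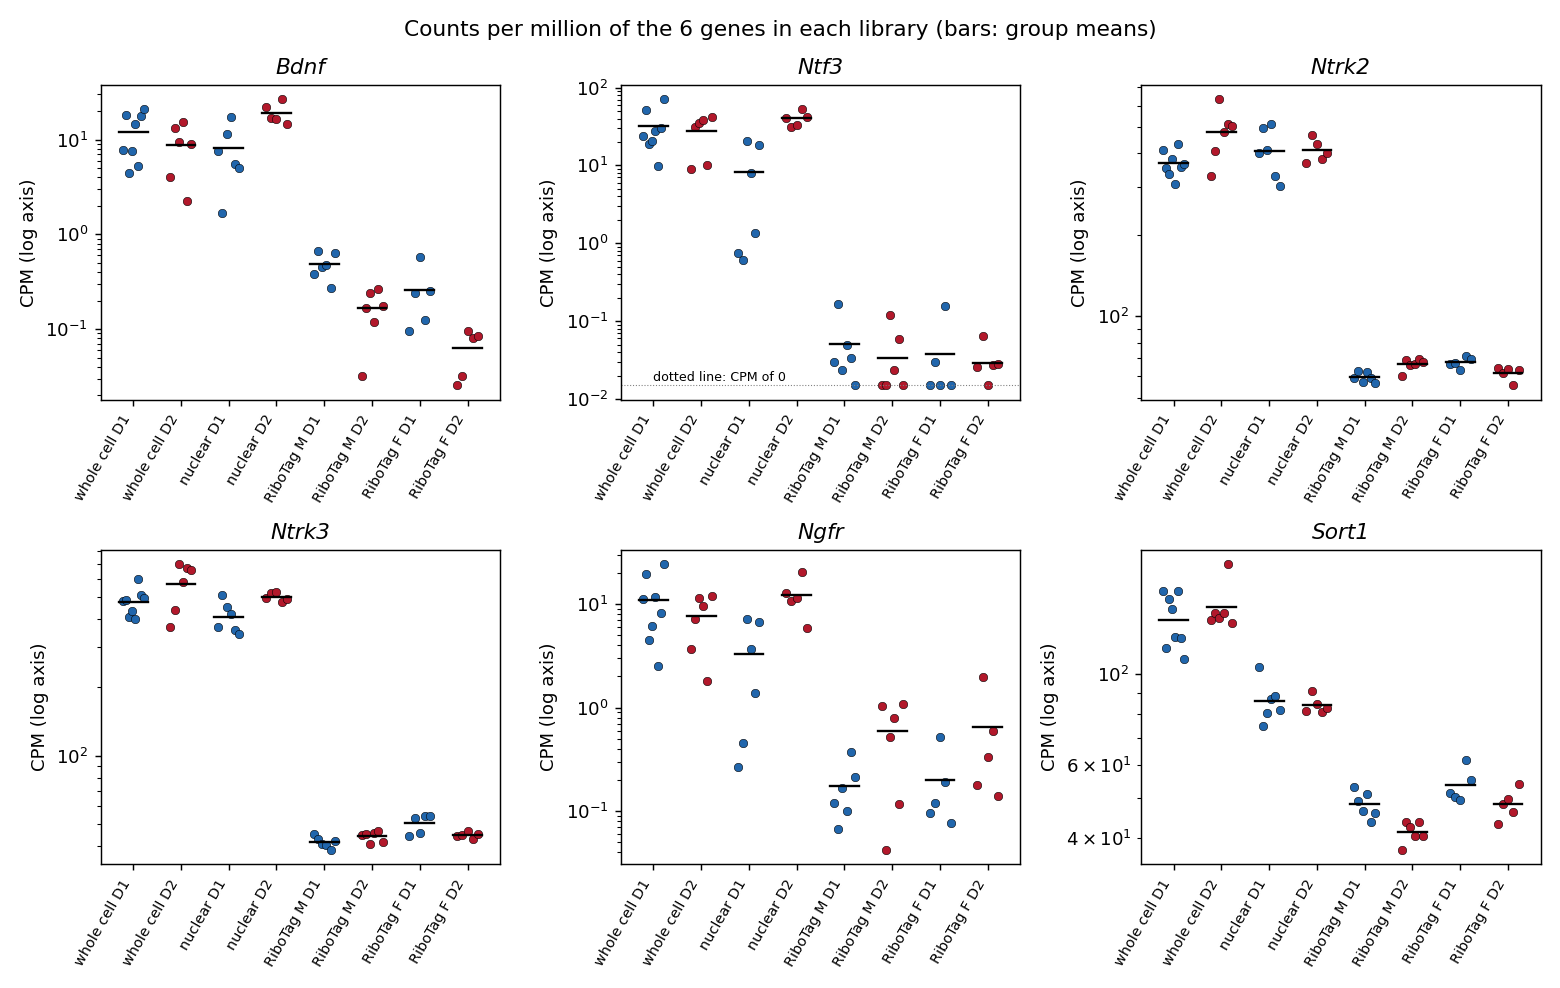
CPM (read counts scaled to library size, log axis) of the 6 genes in each library (points, D1 blue and D2 red) with the group mean (bar), each of the 4 D1 and D2 sets on its own TMM scale. Ntf3 falls to between 0 and 5 counts in every RiboTag library, drawn on the dotted line where it is 0, while Ntrk2 and Ntrk3 stay within narrow bands there.

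The low genes of whole cell and nuclear libraries were compared with the receptor-gene level of the same library. Bdnf had 0.655 to 1.34 times the mean counts per kb of the olfactory and vomeronasal receptor genes in whole cell libraries and 1.25 to 1.46 times in nuclear D2. In nuclear D1 the ratio for Bdnf ran from 0.980 to 21.2, and 3 of 6 libraries lay above the 95th percentile of the receptor genes. Ntf3 had 1.00 to 2.97 times the receptor-gene mean over the whole cell and nuclear libraries, and 0 of them lay above that percentile. Ngfr had 1.41 to 4.41 times the mean and lay above the percentile in 3 of 8 whole cell D1 and 3 of 5 nuclear D2 libraries, and in 0 of the 6 whole cell D2 and 0 of the 6 nuclear D1 libraries. By contrast, Sort1 lay above the 95th percentile in every library of the 4 groups. Ntrk2 did so in all but 1, a whole cell D1 library, and Ntrk3 in 6 of 8 whole cell D1, 4 of 6 whole cell D2, 6 of 6 nuclear D1 and 4 of 5 nuclear D2 libraries.

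**Figure D2:**
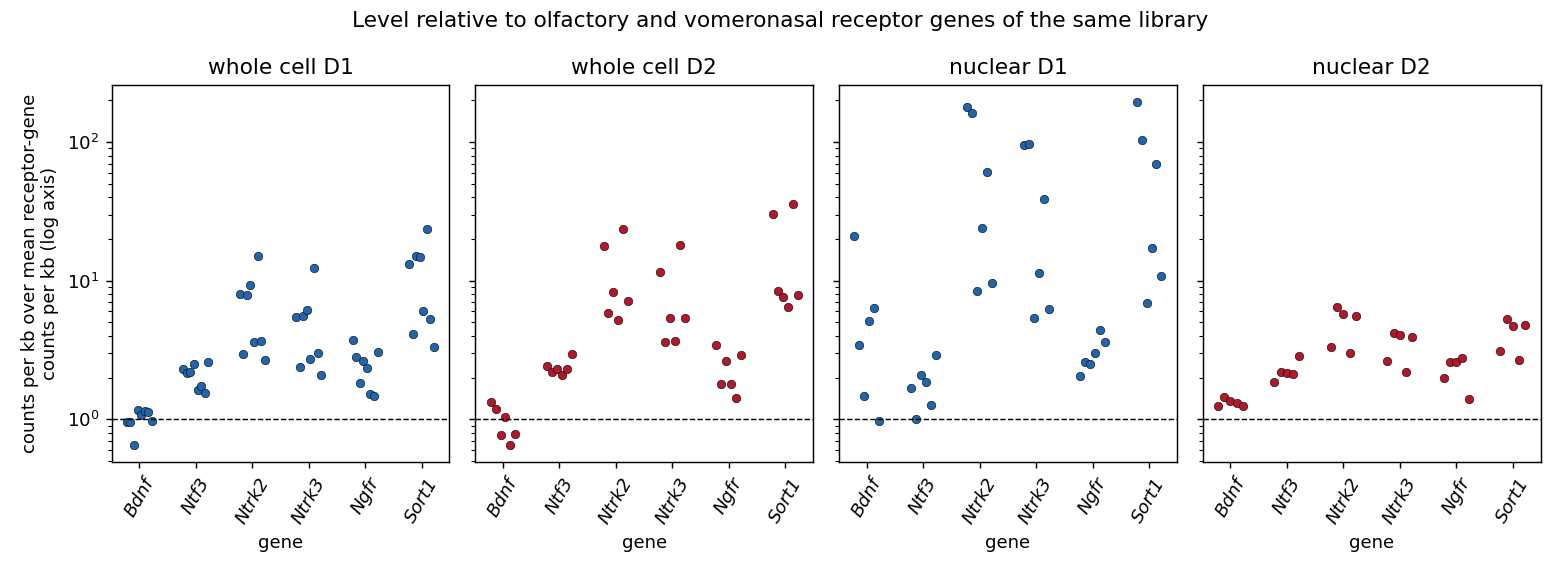
Counts per kb of gene body of each gene divided by the mean over 1316 olfactory and vomeronasal receptor genes of the same library (log axis), 1 point per library, with a dashed line at 1. Bdnf lies close to the line in whole cell and nuclear D2 libraries, and Ntrk2, Ntrk3 and Sort1 lie above it in every library.

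Bdnf, the ligand of TrkB, was higher in D1 than in D2 RiboTag libraries at very low counts. RiboTag M D1 libraries held 8 to 20 counts (median 18.5), or 0.271, 0.463 and 0.669 CPM at the lowest, median and highest, and RiboTag M D2 libraries held 1 to 10 counts (median 5.5), or 0.0323, 0.172 and 0.263 CPM. Every D1 library lay above every D2 library. The means were 0.481 ± 0.151 and 0.166 ± 0.0833 CPM (SD, n = 6 each), a ratio of 2.90, and the 2-sided exact permutation test gave p = 0.0022, the smallest that 6 against 6 allows. RiboTag F D1 libraries held 3, 8, 19, 4 and 10 counts and RiboTag F D2 libraries 1, 1, 4, 3 and 3. The groups again did not overlap in CPM, narrowly, and the means of 0.260 ± 0.193 and 0.0634 ± 0.0321 CPM (n = 5 each) stood at a ratio of 4.10 with p = 0.0079 in the exact permutation test, the smallest that 5 against 5 allows. Both p-values stand among 12 such tests of low genes and are not adjusted.

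Among the 6 genes, every D1 library lay above every D2 library for 2 in RiboTag M (Bdnf and Sort1) and for 1 in RiboTag F (Bdnf). Over genes with at least 50 counts this was so for 2.03% and 2.09%, and the reverse order held for 1.28% in RiboTag M. Leaving out any 1 library gave a Bdnf p of 0.0043 in RiboTag M and of 0.016 in RiboTag F. These values were fixed in advance, since groups without overlap stay apart when 1 library is left out. Among the 6 RiboTag M libraries whose sex genes go with their label, 2 D1 stood against 4 D2. The Bdnf means were 0.453 and 0.163 CPM, and the D1 libraries still lay above the D2 libraries. The exact permutation test gave p = 0.13, where 2 against 4 libraries cannot give a p under 0.05. With at most 20 counts in any library, the size of the ratio is poorly determined.

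Summed markers of glutamatergic neurons were also higher in D1 than in D2 RiboTag libraries. Of the 6 markers, 4 were tested in RiboTag M and 4 passed, all higher in D1, and 3 of 4 did in RiboTag F. Their summed level was 19.1 to 45.7 CPM in RiboTag M D1 against 1.45 to 12.1 in D2, and 15.2 to 42.5 in RiboTag F D1 against 2.40 to 8.61 in D2. None of the 6 markers was at 0 in all libraries of a group. Slc17a7, the vesicular glutamate transporter of cortical neurons, had 21.9 ± 6.26 CPM in RiboTag M D1 and 3.40 ± 2.40 in D2 (log2 fold change -2.64 ± 0.26 SE, edgeR adjusted p = 7.9e-08). The RiboTag F D1 library with the most Bdnf, number 4 with 19 counts, also had the highest marker sum of its group, 42.5 CPM. This was not so in RiboTag M D1. There library 2, with the most Bdnf (0.669 CPM), had a marker sum of 24.8 CPM, and library 5, with the least (0.271 CPM), had 28.5 CPM. The summed level of 5 GABA interneuron markers was also higher in D1. It was 17.7 to 23.5 CPM against 9.57 to 13.4 in RiboTag M and 20.03 to 34.1 against 8.24 to 17.6 in RiboTag F. Of the 5 markers, 3 were tested in each set and all 3 passed, higher in D1. The part of these cells in the Bdnf result was not tested. In such pooled cells, fewer cells of a type and less RNA per cell cannot be told apart.

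**Figure D3:**
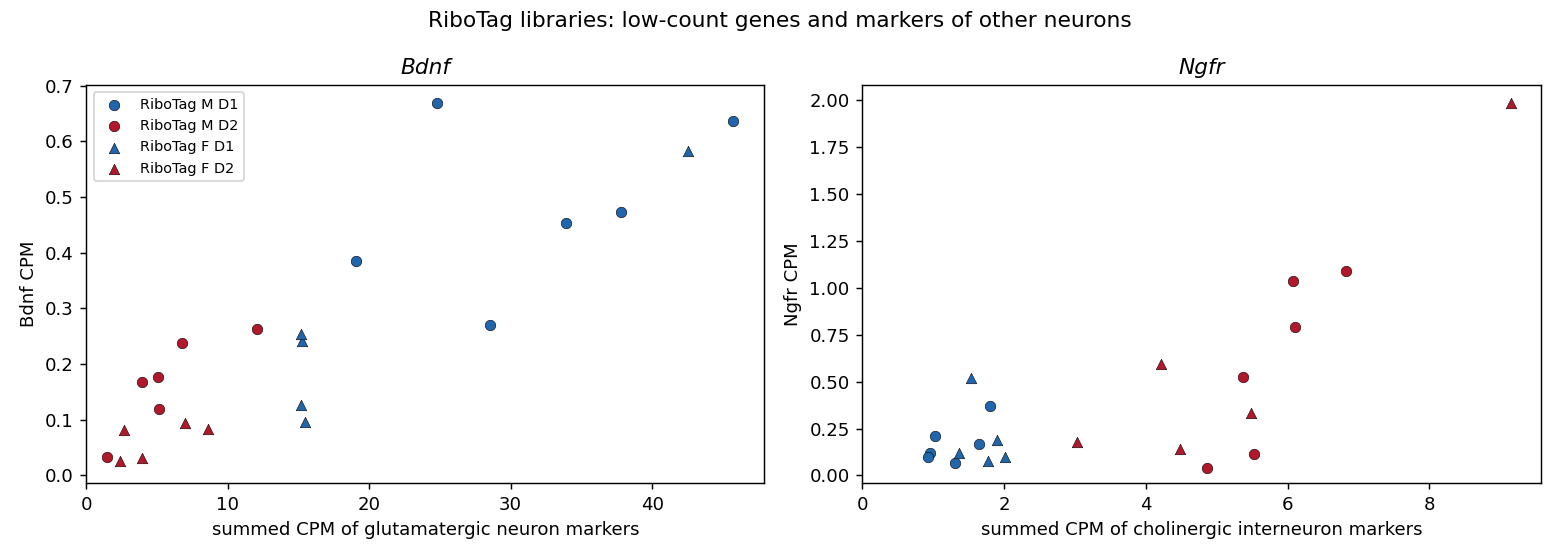
Each RiboTag library (circles M, triangles F, D1 blue, D2 red) by its summed CPM of markers of glutamatergic neurons (left) or cholinergic interneurons (right) and its CPM of Bdnf or Ngfr. D1 libraries lie to the right of D2 for the glutamatergic sum and to the left for the cholinergic sum, and the highest Ngfr value, 1.98 CPM, has the highest cholinergic sum.

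In whole cell libraries Bdnf was 4.46, 11.3 and 21.3 CPM at the lowest, median and highest in D1 and 2.28, 9.18 and 15.2 in D2. The groups overlapped and the log2 fold change (D2 over D1) was -0.45 ± 0.42 (SE; edgeR adjusted p = 0.75). In nuclei the sign was opposite. Nuclear D1 libraries had 1.68, 6.55 and 17.5 CPM at the lowest, median and highest, and nuclear D2 libraries 22.03, 16.8, 16.4, 26.7 and 14.5. D1 library 4 reached into the D2 range. The log2 fold change was 1.21 ± 0.40 with an edgeR adjusted p of 0.0502, beside a receptor-gene level that was also higher in D2 nuclei. Its median was 12.7 against 0.375 raw counts per kb, where median total counts also differed (3.84e+07 against 6.96e+06). The share of all counts expected from such background reads was 31.7% to 50.7% in D2 nuclei and 0.481% to 21.5% in D1. The glutamatergic marker sum was 69.5 to 148 CPM in D1 nuclei and 148 to 201 in D2 nuclei, with 3 of 6 markers higher in D2. With the background counts expected from the receptor genes subtracted the Bdnf change was 0.40 (edgeR adjusted p = 0.70), and 0.76 (0.25) without the 3 D1 libraries in which 10 genes took over 50% of the counts. DESeq2 and 5 further settings, 3 of which each left out 1 D1 library (2, 3 or 4), put the adjusted p for Bdnf below 0.05.

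Ntf3, the ligand of TrkC, was at the detection floor in ribosome-bound RNA. The RiboTag libraries held 0 to 5 counts each, with 10, 8, 6 and 5 counts summed over RiboTag M D1, M D2, F D1 and F D2. Given that 3 counts is the limit that a count of 0 allows in a library, the level could be stated only as at or near that floor, which was 0.0657 to 0.125 CPM. No difference between cell types was detectable at this depth (exact permutation p = 0.60 in RiboTag M, p = 0.90 in RiboTag F). Whole cell libraries held 143 to 1021 counts, with 9.89, 25.7 and 70.7 CPM in D1 and 9.09, 33.1 and 42.3 in D2 at the lowest, median and highest. These groups overlapped (log2 fold change -0.19 ± 0.39, edgeR adjusted p = 0.93).

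In nuclei Ntf3 was higher in D2. Nuclear D1 libraries had 0.612, 4.66 and 20.4 CPM at the lowest, median and highest and D2 libraries 41.1, 31.5, 32.8, 53.6 and 41.7. Every D2 library lay above every D1 library, as was the case for 32.2% of genes with at least 50 counts in this set. The log2 fold change of 2.24 ± 0.68 was the only one of the 6 in nuclei that passed the test (edgeR adjusted p = 0.0400). The threshold was an adjusted p of at most 0.05 and a log2 change above 0.38, which 16.4% of the 9300 genes tested in nuclei met. It was met in 4 of 11 fits that left out 1 library, and lost without D1 4, D1 5 or any 1 of the D2 libraries (adjusted p 0.058 to 0.099). With sequencing lane as a block the change was 2.23 and missed the threshold (edgeR adjusted p = 0.055), as did the change of 1.79 without D1 libraries 1, 5 and 6 (0.058). Per kb, Ntf3 held 1.00 to 2.90 times the receptor-gene mean of the same library in D1 nuclei and 1.86 to 2.88 times in D2 nuclei. Its change was 2.64 (edgeR adjusted p = 0.0398) with the background subtracted. That step leaves almost no counts in the D1 library at 1.00 times the mean, so it cannot decide the part of background reads. That part was not tested. Markers of several other cell types, but not of all, were also higher in D2 nuclei. Endothelial markers summed to 31.1 to 164 CPM in D1 and 186 to 309 in D2, with 3 of 4 tested higher in D2. The 2 markers of oligodendrocyte precursors, both higher, summed to 15.6 to 45.6 and 50.4 to 72.5 CPM. GABA interneuron markers summed to 45.9 to 103 and 116 to 198 CPM, with 2 of 5 higher in D2 and 1 higher in D1. Astrocyte markers leaned the other way, at 850 to 1465 CPM in D1 and 703 to 952 in D2. Of these 8, 2 were higher in D1 and 1 in D2. Oligodendrocyte markers summed to 307 to 825 and 321 to 640 CPM, with 1 of 6 higher in D1. Of 7 MSN markers, 2 were higher in D1 and 0 in D2. Their part in the Ntf3 result was not tested.

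Ntrk2 encodes TrkB, the receptor through which MSNs respond to Bdnf. In RiboTag M it was 56.8, 59.2 and 62.9 CPM at the lowest, median and highest in D1 and 60.3, 67.2 and 69.8 in D2. D2 libraries lay higher with an overlap of the groups, and the log2 fold change was 0.16 ± 0.04 (edgeR adjusted p = 0.0256). That is a 1.12-fold difference, under the fold threshold, and 9.28% of the 6819 genes tested in RiboTag M had an adjusted p of at most 0.05 at any fold. Among the 6 libraries whose sex genes go with their label it was 0.18 with an adjusted p of 0.23. In RiboTag F the sign was the other way. D1 libraries had 66.5, 67.1, 63.1, 71.3 and 69.6 CPM and D2 libraries 64.5, 61.7, 63.8, 55.6 and 63.4, with overlapping groups and a log2 fold change of -0.13 ± 0.05 (adjusted p = 0.21).

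Whole cell Ntrk2 was 308, 361 and 433 CPM at the lowest, median and highest in D1 and 331, 492 and 633 in D2. The groups overlapped and the log2 fold change was 0.38 ± 0.16 (edgeR adjusted p = 0.29), where DESeq2 gave 0.46 (adjusted p = 0.018). In nuclei D1 libraries had 304, 406 and 513 CPM and D2 libraries 367, 465.7, 432, 382 and 401. The D2 values lay within the D1 range and the log2 fold change was 0.00 ± 0.16 (95% interval -0.31 to 0.31). Astrocytes also express Ntrk2. The summed level of 8 astrocyte markers was 64.8 to 80.7 CPM in RiboTag M D1 and 48.1 to 59.2 in D2, opposite to the order of Ntrk2 there. In RiboTag F it was 61.8 to 88.2 CPM in D1 and 52.3 to 70.01 in D2, overlapping but in the same order as Ntrk2 there. Of the 3 astrocyte markers tested in each RiboTag set, 1 was higher in D1. In nuclei the summed level was 850 to 1465 CPM in D1 and 703 to 952 in D2, with 2 of 8 markers higher in D1 and 1 in D2. The part of astrocytes in the Ntrk2 values was not tested.

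Ntrk3, which encodes TrkC, passed the test in none of the 4 sets. RiboTag M libraries had 38.5, 41.7 and 45.5 CPM in D1 and 41.1, 45.1 and 46.6 in D2 at the lowest, median and highest, with a log2 fold change of 0.08 ± 0.05 (edgeR adjusted p = 0.35, and 0.14 with an adjusted p of 0.39 among the 6 libraries whose sex genes go with their label). RiboTag F libraries had 44.6, 53.5, 45.98, 54.6 and 54.5 CPM in D1 and 44.5, 45.0, 46.8, 43.1 and 45.4 in D2, with -0.17 ± 0.06 (adjusted p = 0.12). The 3 highest D1 libraries lay above all D2 libraries and the other 2 among them. Whole cell values of 401, 483 and 603 CPM in D1 and 369, 620 and 699 in D2 overlapped (0.26 ± 0.18, adjusted p = 0.60), as did nuclear values of 343, 395 and 510 CPM in D1 and 496, 521, 525, 475 and 489 in D2 (0.29 ± 0.14, adjusted p = 0.15).

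Ngfr was higher in D2 RiboTag libraries on average, with a wide spread. The RiboTag M D1 libraries held 4, 2, 7, 4, 11 and 6 counts and the D2 libraries 32, 1, 22, 33, 4 and 37. In D2, 4 libraries stood above every D1 library, while in CPM D2 library 5 lay within the D1 range and D2 library 2 below it. The log2 fold change was 1.86 ± 0.49 (edgeR adjusted p = 0.0145), and Ngfr was the 1 of 4 genes of the family tested in RiboTag M that was called, where 3.99% of all genes tested were. Ngfr entered the test only because D2 libraries 1 and 6 exceeded 1 CPM, so a gene admitted this way had to differ. It was below that filter without either of them, and among the 6 libraries whose sex genes go with their label. The means among those 6 were 0.292 and 0.616 CPM in D1 and D2 (exact permutation p = 0.40, where 2 against 4 libraries cannot give a p under 0.05). DESeq2 gave an adjusted p of 0.077 and the exact permutation test of CPM, which does not need the filter, p = 0.065 (0.022 to 0.13 with 1 library left out, below 0.05 without D2 library 2 or 5). RiboTag F D1 libraries held 3, 4, 17, 6 and 3 counts and D2 libraries 7, 62, 14, 22 and 5. The means of 0.201 ± 0.184 and 0.646 ± 0.769 CPM overlapped (exact permutation p = 0.19), and D2 library 2 alone held 62 of the 110 D2 counts (means of 0.201 and 0.311 CPM without it, exact permutation p = 0.38). Without D1 library 4 the p was 0.048.

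The summed markers of cholinergic interneurons, in which the Drd2 driver is also active, were higher in D2 RiboTag libraries too. The 5 markers (Chat, Slc5a7, Slc18a3, Lhx8 and Zic4) summed to 0.921 to 1.79 CPM in RiboTag M D1 and 4.87 to 6.82 in D2, and to 1.36 to 2.02 in RiboTag F D1 and 3.03 to 9.15 in D2. Of the 3 tested, 3 were higher in D2 in RiboTag M and 2 in RiboTag F, and none of the 5 was at 0 throughout a group. Chat, which makes acetylcholine, rose from 0.337 ± 0.131 to 1.76 ± 0.223 CPM in RiboTag M (log2 fold change 2.42 ± 0.20, edgeR adjusted p = 3.7e-09). RiboTag F D2 library 2, with the 62 Ngfr counts, also had the highest marker sum. RiboTag M D2 libraries 2 and 5, low in Ngfr, had marker sums of 4.87 CPM, the lowest of the D2 group, and 5.52 CPM, both above every D1 library. The part of these interneurons in the Ngfr result was not tested.

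In whole cell libraries Ngfr was 2.52, 9.69 and 24.4 CPM in D1 and 1.80, 8.38 and 11.9 in D2 at the lowest, median and highest. The groups overlapped (log2 fold change -0.52 ± 0.46, edgeR adjusted p = 0.73). Nuclear D1 libraries had 0.268, 2.54 and 7.11 CPM and D2 libraries 12.7, 10.8, 11.4, 20.4 and 5.89, so that 4 of 5 D2 libraries lay above all D1 libraries. The nuclear log2 fold change of 1.89 ± 0.63 missed the threshold in edgeR (adjusted p = 0.0551), while DESeq2 called it (1.92, adjusted p = 0.018). Ngfr held 2.06 to 4.41 times the receptor-gene mean in D1 nuclei and 1.41 to 2.79 times in D2 nuclei. Cholinergic markers summed to 13.2 to 45.2 CPM in D1 nuclei and 51.2 to 94.9 in D2 nuclei, with 4 of 5 higher in D2, beside the other marker lists given with Ntf3. Their part in the Ngfr values was not tested.

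Sort1, the sorting receptor that carries proneurotrophins and Bdnf into the regulated secretory pathway, differed little between the cell types. RiboTag M libraries had 43.8, 47.7 and 53.1 CPM in D1 and 37.4, 41.5 and 43.7 in D2 at the lowest, median and highest. Every D1 library lay above every D2 library, narrowly, and the log2 fold change was -0.22 ± 0.05 (edgeR adjusted p = 0.0058), under the fold threshold. Among the 6 libraries whose sex genes go with their label it was -0.13 (adjusted p = 0.45). RiboTag F libraries had 51.3, 50.2, 49.5, 61.8 and 55.1 CPM in D1 and 43.2, 48.3, 49.6, 46.1 and 54.1 in D2. The groups overlapped with a log2 fold change of -0.15 ± 0.07 (adjusted p = 0.27). Whole cell values of 109, 133 and 159 CPM in D1 and 133, 138 and 184 in D2 overlapped (0.10 ± 0.14, adjusted p = 0.87), as did nuclear values of 74.7, 84.3 and 104 in D1 and 81.0, 90.6, 84.4, 80.8 and 82.4 in D2 (-0.04 ± 0.11, adjusted p = 0.85).

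**Figure D4:**
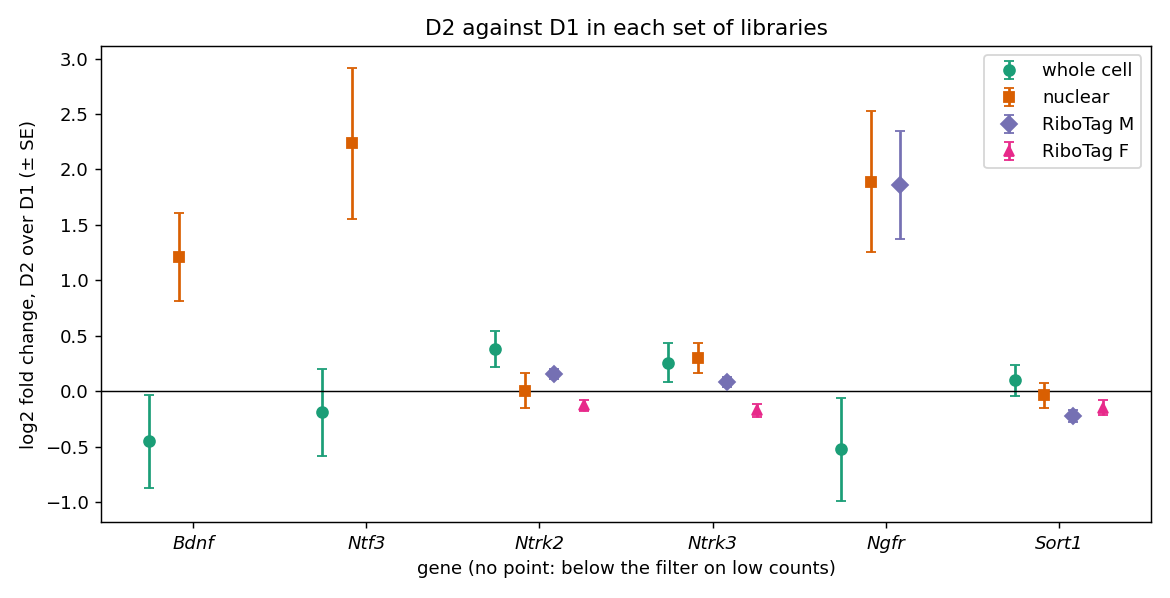
Log2 fold change of D2 over D1 with its standard error for each gene and set of libraries, with no point where a gene was below the filter on low counts. The changes of Ntrk2, Ntrk3 and Sort1 lie between -0.22 and 0.38 in every set, and the largest, for Bdnf, Ntf3 and Ngfr in nuclei and Ngfr in RiboTag M, carry wide errors.

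By the threshold on both fold and adjusted p, 0 of 6 genes were called in whole cell libraries, where 0.773% of 16423 genes tested were. Of the 6, 1 (Ntrk2) had an edgeR unadjusted p under 0.05, as did 2198 of all genes tested, and DESeq2 called it. The 127 genes called were 60 higher and 67 lower in D2, against 142 and 64 with DESeq2 size factors. In RiboTag F, 0 of the 3 genes tested were called against 2.68% of 7090 genes, and DESeq2 called 0. All 3 had an edgeR unadjusted p under 0.05, as did 1134 of the 7090 genes. Bdnf and Ntf3 were below the count filter in both RiboTag sets.

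The nuclear fold changes depended on the genes that set the scale between libraries. When TMM factors were computed over all 30791 genes above 1 CPM, without the FPKM filter, the median change of all genes moved from 0.03 to 0.26 and Ntrk2, Ntrk3 and Sort1 moved to -1.12, -0.83 and -1.19 (edgeR adjusted p 0.011, 0.026 and 0.0075). The changes of Bdnf, Ntf3 and Ngfr fell to 0.17, 1.498 and 1.06 and passed no test. On this scale 1729 genes were called higher and 6350 lower in D2, against 541 and 981 with the filter. The direction of Ntrk2 and Ntrk3 in nuclei thus turned with the scaling, and Sort1 changed from -0.04 to a call.

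**Figure D5:**
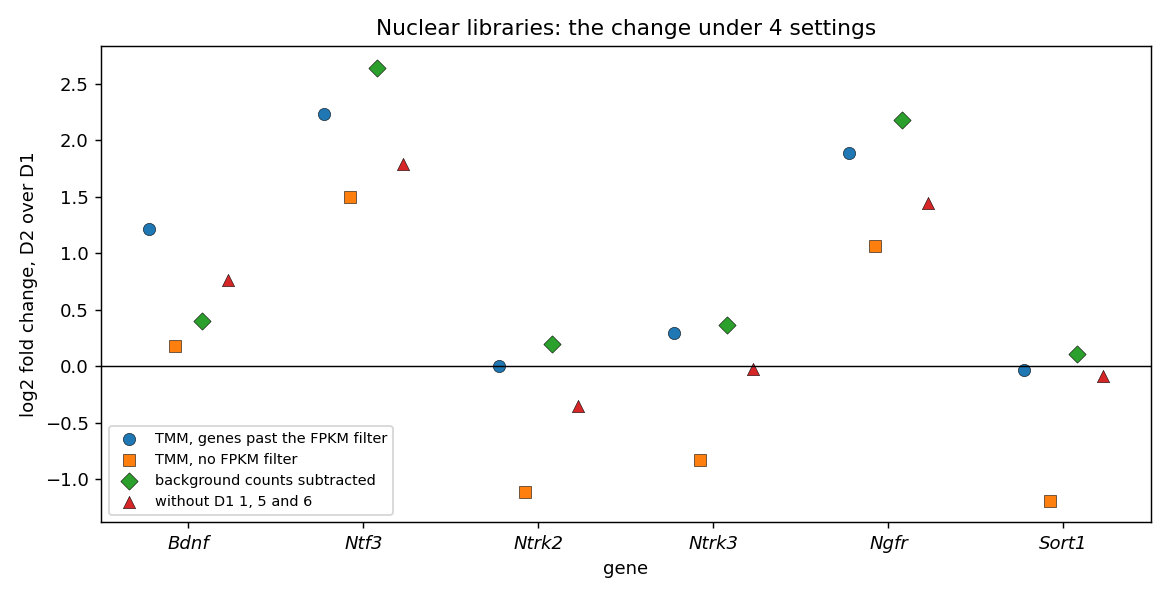
Log2 fold change of D2 over D1 in nuclear libraries under 4 settings: TMM on genes past the FPKM filter, TMM without it, background counts subtracted, and without D1 libraries 1, 5 and 6. Without the FPKM filter Ntrk2, Ntrk3 and Sort1 lie between -0.83 and -1.19, and under the other 3 settings between -0.35 and 0.36.

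Set against whole cell RNA of male libraries in 1 fit on 29901 genes, Ntf3 changed in RiboTag M by -5.62 ± 0.67 log2 units in D1 and -5.92 ± 0.71 in D2 (edgeR adjusted p = 3.1e-09 and 3.7e-09), while the median gene changed by -1.86 and -1.87. Bdnf changed by -0.99 ± 0.36 in D1 and -2.16 ± 0.42 in D2 (adjusted p = 0.012 and 2e-05). Sort1 was higher by 1.959 ± 0.21 and 1.56 ± 0.23 (adjusted p = 4.6e-10 and 3.1e-07) and Ntrk2 by 0.85 ± 0.19 and 0.58 ± 0.21 (adjusted p = 0.00020 and 0.0124). Ngfr changed in D1 by -2.31 ± 0.58 (adjusted p = 0.00050). In all, 5 of 6 genes were called in D1 and 4 of 6 in D2, where 80.5% and 81.2% of genes were. With the scale set by genes of at least 1 FPKM, Ntrk2 turned to -0.67 in D1 and -0.91 in D2, Sort1 fell to 0.49 in D1 (edgeR adjusted p = 3.6e-06) and to 0.14 in D2, where its call was lost (adjusted p = 0.15), and Ntf3 stood at -7.41 and -7.51. With background counts subtracted, Bdnf turned to 2.53 in D1 and 1.03 in D2. Mouse line, dissociation and tissue state differ with the method and cannot be told apart from it.

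Nuclear RNA held more Ntrk2 and Ntrk3 than whole cell RNA in D1 neurons (log2 fold change 1.16 ± 0.19 and 0.79 ± 0.19, edgeR adjusted p = 2.6e-05 and 0.0021). In D2 neurons Bdnf was higher by 1.08 ± 0.37 (adjusted p = 0.030) and Sort1 changed by -0.95 ± 0.24 (adjusted p = 0.0037). That is 2 of 6 genes in each cell type, against 19.1% and 20.2% of all genes, called higher and lower in 3195 and 2523 cases in D1 and 1100 and 4928 in D2. DESeq2 size factors gave 3076 and 3156 in D1 and 1767 and 3486 in D2. On the scale of genes of at least 1 FPKM, Ntrk2 kept 0.88 and Ntrk3 0.49 in D1, and Sort1 turned to 0.08 in D2. Nuclei against RiboTag M libraries gave 5 of 6 genes in D1 and 4 of 6 in D2, with 79.6% and 86.3% of all genes called. Ntf3 was higher in nuclei by 4.597 ± 0.69 and 6.43 ± 0.71 and Sort1 changed by -1.61 ± 0.23 and -2.52 ± 0.26.

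The difference between cell types itself differed between methods for some genes, on the unfiltered scale. The D2-over-D1 change in nuclei minus that in whole cells was -1.49 ± 0.30 for Ntrk2, -1.10 ± 0.28 for Ntrk3 and -1.30 ± 0.32 for Sort1 (edgeR adjusted p = 0.00062, 0.0055 and 0.0042), 3 of 6 genes, with 21.9% of all genes called (1831 higher and 4722 lower, against 3719 and 3466 with DESeq2 size factors). Against RiboTag M, nuclei differed for Bdnf (1.70 ± 0.57, adjusted p = 0.038), Ntrk2 (-1.22 ± 0.31, 0.0076) and Ntrk3 (-0.85 ± 0.29, 0.041), with 14.6% of all genes called (491 and 3865, against 725 and 2263). RiboTag M and whole cells differed for 0 of 6 genes (edgeR, 0.12% of all genes called, 0 of the 6 by DESeq2). An edgeR unadjusted p under 0.05 was held by 2 of the 6 and by 1337 of all 29901 genes. With the scale set by genes of at least 1 FPKM, the Ntrk2, Ntrk3 and Sort1 differences between nuclei and whole cells were -0.25, 0.18 and 0.01 and passed no test, while Bdnf, Ntf3 and Ngfr stood at 1.84, 2.60 and 2.60 (adjusted p = 0.033, 0.015 and 0.028). Bdnf kept its difference between nuclei and RiboTag M on that scale, 2.85 with an adjusted p of 0.015, but not with background counts subtracted (1.15, adjusted p = 0.77).

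RiboTag F and M libraries differed for none of the 4 genes tested by edgeR in D1, in D2 or in the interaction with cell type. Of all 7209 genes 0%, 0.0694% and 0% were called, with 570, 523 and 515 at an unadjusted p under 0.05, and DESeq2 called 1, 10 and 1. Ntrk2 came closest, lower in F than in M in D2 neurons (log2 fold change -0.22 ± 0.05, adjusted p = 0.0502), with a difference between the D2 and D1 contrasts of -0.29 ± 0.07 (adjusted p = 0.22, and 0.0048 with DESeq2, under the fold threshold). With the M libraries restricted to those whose sex genes go with their label, these were -0.20 (adjusted p = 0.35) and -0.31 (0.51).

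Beyond the 6 genes, 73 genes of neurotrophin processing, receptors, adaptors, kinases and trafficking were examined. In whole cell libraries 0 of 73 were called by edgeR and 3 by DESeq2, which called 691 of all 16423 genes. An edgeR unadjusted p under 0.05 was held by 9 of the 73 and by 2198 of all genes. The median log2 fold change was -0.13 against -0.04 over all genes. In nuclei 30 were higher in D2 and 10 in D1, 40 of 73, where 16.4% of all genes were called, with a median of 0.55 against 0.03. With background counts subtracted 32 were called, beside 1308 of all 9300 genes. Without D1 libraries 1, 5 and 6 there were 20, beside 943 of 11930. Without the FPKM filter 40 were called, beside 8079 of 30791 with a median of 0.26 over all genes. With a replicate block or in either lane alone 0 were, as was so for all genes in those 3 fits. Of the 27 that passed the FPKM filter unaided, 11 were called (40.7%). In RiboTag M 1 of 61 tested was higher in D2 and 3 in D1, and in RiboTag F 2 of 60 were higher in D1, with medians of 0.01 and -0.03 against 0.00 in both and with 3.99% and 2.68% of all genes called. Of those that passed the FPKM filter unaided, 0 of 38 in RiboTag M and 0 of 39 in RiboTag F were called. Each RiboTag call was thus of a gene kept without that filter.

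The genes called the same way in at least 2 sets were few. Cadps2, which promotes release of neurotrophins from dense-core vesicles, was lower in D2 in RiboTag M (5.70 ± 0.929 CPM in D1, 2.45 ± 0.239 in D2, log2 fold change -1.21 ± 0.10) and RiboTag F (5.06 ± 2.30 and 2.53 ± 1.04 CPM, -1.02 ± 0.27, edgeR adjusted p = 0.029), but higher in nuclei (1.45 ± 0.27). Lingo1, a co-receptor of p75NTR, was lower in D2 in both RiboTag sets (-0.51 ± 0.06 and -0.44 ± 0.10) and higher in nuclei (0.87 ± 0.15). Sorcs2, a receptor of the sortilin family that pairs with p75NTR, was higher in D2 in RiboTag M (10.1 ± 0.560 and 13.8 ± 1.09 CPM, 0.45 ± 0.06) and in nuclei (0.91 ± 0.17), with 0.32 ± 0.10 in RiboTag F (adjusted p = 0.091). Ntf5, which encodes neurotrophin-4, held 2 counts over all RiboTag libraries together.

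Over all 47 libraries, the protein-coding genes whose log2 CPM was most like that of each member were Nwd2 and Ncald for Bdnf (Pearson r = 0.925 and 0.918), Ebf2 and Gm7247 for Ntf3 (0.992 and 0.991), Mtcl1 and Sik3 for Ntrk2 (0.953 and 0.948), Kalrn and Kat6b for Ntrk3 (0.964 and 0.943), Sh3bgrl2 and Mtap for Ngfr (0.777 and 0.770), and Clstn1 and Apc2 for Sort1 (0.993 and 0.992). The points share method, depth and background, so these values are a description over libraries that differ mainly by method.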

How the data were processed

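The authors aligned reads to GRCm38 with HISAT2 2.0.5 and, per the submitters' processing notes and the study's methods, counted them with featureCounts over all features of each gene. A stranded kit on ribo-depleted RNA was used, but counting ignored strand, left out multimapping reads and counted a read for every gene it overlapped. The deposited table holds these raw counts. All 49 columns were used as 47 libraries: 2 columns, a repeat of whole cell D1 number 1 and a lane of D2 number 3, were read from their names as repeat runs and summed with their sample (median chi-square over expectation 2.13 and 1.03, against 5.22 for the closest other D1 and 20.4 for the closest other D2 pair). The study counts these columns as 9 D1 and 7 D2 whole cell samples and the labels name 8 and 8, so the 8 and 6 used here differ from both. Each was also kept apart as an alternative. The lane differed from its sample by about the sampling noise, the repeat by more.

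The main test was edgeR 4.0.16 (R 4.3.3), quasi-likelihood with TMM, Benjamini-Hochberg adjusted over all genes tested. Genes had more than 1 CPM in at least 2 libraries and, within a method, an FPKM on the gene body of at least 1 in 1 library and at most 50000 (0.1 in 2 libraries for RiboTag). The 6 genes, the pathway list and the cell type markers were kept without the FPKM filter. Of the 6, Bdnf, Ntf3 and Ngfr passed it unaided in no set, and Ntrk3 in neither RiboTag set. A call needed an adjusted p of at most 0.05 and an absolute log2 change above 0.38. Low genes were compared by exact permutation tests of CPM, which cover only the spread between these samples. Scripts were tested on simulated data. Named pathway genes were those called the same way in at least 2 sets, at most 10, with Ntf5 for its level. Other genes named for their level are not reported here. Most-alike genes were the 2 with the highest Pearson r of log2(CPM + 1) at a median CPM of at least 1. Same-number correlations of deviations ran from -0.327 to 0.229 over the sets, so the numbers do not pair samples. Alternatives were DESeq2 1.42.0, its size factors, no FPKM filter, a replicate block, lane, background subtraction and leaving out libraries. The members and lists were chosen with earlier results of these data known. Annotation was GENCODE vM21, which matched 52489 genes.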

Additional observations from a re-analysis of the deposited data

Results flagged for a closer look

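Dixon's test has a chance rate of about 1 in 20 only for normal values, so it gives no reference for sets of few counts with ties at 0. By this test, libraries stood apart from their group in 5 of 48 sets of values. They were Ntf3 in RiboTag M D1 library 2 (0.167 CPM) and RiboTag F D1 library 5 (0.158 CPM), both from 5 counts, Ngfr in RiboTag F D1 library 4 (0.521 CPM) and F D2 library 2 (1.98 CPM), and Sort1 in whole cell D2 library 5 (184 CPM). RiboTag F D1 library 4 also had the highest Bdnf and glutamatergic marker values of its group, and F D2 library 2 the highest cholinergic marker sum. Without F D1 library 4 the exact permutation p for Ngfr in RiboTag F was 0.048.

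The change between cell types differed between methods by an interaction test for 6 cases. Between nuclei and whole cells these were Ntrk2 (-1.49), Ntrk3 (-1.10) and Sort1 (-1.30), and between nuclei and RiboTag M they were Bdnf (1.70), Ntrk2 (-1.22) and Ntrk3 (-0.85). Of the 6, only the Bdnf difference kept its call when the scale was set by genes of at least 1 FPKM.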

How the results depend on the processing

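Of the results recomputed under other settings, 866 kept direction and side of the threshold, 27 lost a call, 28 gained one and 54 changed sign, 20 of these by leaving out 1 library. The causes were not tested. Restrictions to libraries by their 10 highest genes, sex genes or lane, the scale of genes of at least 1 FPKM and the variants of the exact tests were chosen after seeing the data.

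Of the 6 genes, the number called in nuclei moved from 1 to 3 with DESeq2 (which called 2188 of all 9300 genes against 1522), 2 with DESeq2 size factors (1529), 3 without the FPKM filter (8079 of 30791), 0 in lane 4 or lane 5 alone, 0 without D1 libraries 1, 5 and 6, and 0 to 3 with 1 library left out (3 without D1 3, 2 without D1 2, 0 without D1 5 or any D2 library). In whole cells it moved from 0 to 1 with DESeq2 (691 of 16423 genes against 127). In RiboTag M it moved from 1 to 0 with DESeq2 (267 of 6819 genes against 272), 0 among libraries with Y-linked counts above Xist, and 0 to 1 with 1 library left out (0 without D2 1 or 6). For the difference between nuclei and RiboTag M it moved from 3 to 1 with background subtracted and to 1 on the scale of genes of at least 1 FPKM.

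The replicate numbers did not pair the samples. With a replicate block, 0 of the 6 genes and 0 genes in all were called in nuclei, where Ntf3 stood at 4.21 (edgeR adjusted p = 0.15), while 1 of 4 stayed called in RiboTag M. The block turned whole cell Ntf3 to 0.0763.

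Signs that changed in nuclei (D2 over D1) were those of Ntrk2 without the FPKM filter (-1.12), with lane as a block (-0.0101), in lane 4 alone (-0.0857) and without D1 libraries 1, 5 and 6 (-0.35), of Ntrk3 without the FPKM filter (-0.83) and without those libraries (-0.0252), and of Sort1 with background subtracted (0.11) and in lane 5 alone (0.11). With 1 library left out, Ntrk2 ran from -0.10 to 0.11 and Sort1 from -0.0851 to 0.0303, and whole cell Ntf3 from -0.33 to 0.11. On the scale of genes of at least 1 FPKM, nuclei against whole cells in D2 turned for Ntrk2 (0.62), Ntrk3 (0.67) and Sort1 (0.0788), RiboTag M against whole cells turned for Ntrk2 (-0.67 in D1, -0.91 in D2), and nuclei against RiboTag M in D2 for Ntrk2 (1.54) and Ntrk3 (2.42). Ntrk3 in D2 also turned with DESeq2 and its size factors, in nuclei against whole cells (0.0048 and 0.0052) and against RiboTag M (0.45 and 0.45), and with background subtracted against RiboTag M (0.38). Background subtraction turned RiboTag M against whole cells for Bdnf (2.53 in D1, 1.03 in D2) and Ngfr in D2 (0.15), and the nuclear minus whole cell difference for Bdnf (-0.35). On the scale of genes of at least 1 FPKM, that difference turned for Ntrk3 (0.18) and Sort1 (0.0113), and the nuclear minus RiboTag M difference for Ntrk3 (0.36), Ngfr (0.18) and Sort1 (0.35).

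Between RiboTag F and M, with libraries whose sex genes go with the label, Ngfr in D1 turned to -0.68 and the interaction to 0.56 for Ngfr and -0.0221 for Sort1. With 1 library left out, Ngfr ran from -0.60 to 0.45 in D1, from -1.10 to 0.11 in D2 and from -1.21 to 0.46 in the interaction, and Sort1 from -0.0182 to 0.0677 in D1. The Ntf3 difference in CPM, D2 minus D1, turned to 0.0334 in RiboTag M libraries with Y-linked counts above Xist and ran from -0.0343 to 0.00612 in RiboTag M and from -0.0181 to 0.0214 in RiboTag F with 1 library left out.

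Over all genes, whole cell calls moved from 127 to 691 with DESeq2, 206 with its size factors, 35 without the FPKM filter, 70 with the replicate block, 346 with background subtracted, 297 with the repeat of D1 number 1 as its own library and 375 with lanes apart, and from 46 to 392 with 1 library left out. Nuclear calls moved from 1522 to 8079 without the FPKM filter, 0 in either lane alone, 943 without D1 libraries 1, 5 and 6, and 492 to 2113 with 1 library left out. RiboTag M calls moved from 272 to 481 without the FPKM filter. On the scale of genes of at least 1 FPKM, where 7700 and not 29901 genes were tested, the nuclear minus RiboTag M count moved from 4356 to 726, nuclear minus whole cell from 6553 to 1585, RiboTag M minus whole cell from 36 to 96 (116 with DESeq2), nuclei against whole cells from 5718 and 6028 (D1, D2) to 3593 and 2755, RiboTag M against whole cells from 24083 and 24287 to 4731 and 4777, and nuclei against RiboTag M from 23790 and 25816 to 5029 and 5582. RiboTag F against M gave 7, 7 and 0 genes (D1, D2, interaction) in libraries whose sex genes go with the label, against 0, 5 and 0. At these depths Bdnf, Ntf3 and Ngfr in RiboTag rest on at most 62 counts per library.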
